A study of Mus musculus with 6 samples.

Results

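The genes that make cholesterol and fatty acids, with the genes that regulate them, were examined in the anterior palatal mesenchyme of Meis2 mutant mouse embryos. The set holds 30 genes, chosen by symbol for their known function: 18 enzymes of sterol synthesis, 6 genes of the SREBP system and sterol transport, and 6 enzymes of fatty acid synthesis and desaturation. It was chosen with earlier results of these data known. All 30 were found in both full tables of the series, among 24417 rows with a unique symbol. The mutant embryos were Wnt1Cre;Meis2f/f, in which Cre, driven by Wnt1 sequences in the neural crest, recombines the floxed gene for Meis2, a homeodomain transcription factor. They were compared with wildtype embryos of the same C57BL/6 background and stage, E12.5, with 3 RNA-seq libraries per genotype. The palatal epithelium had been removed with Dispase II before RNA was taken. No group carried Cre alone or the floxed allele alone, so an effect of either cannot be told apart from one of the deletion. All 14 palate mesenchyme markers, among them Prrx1, Twist1 and Pdgfra, had a base mean of at least 10, the level taken here as measured, and 3 of them were called lower and 2 higher in the mutant (DESeq2 Wald test), where 2.91% of all genes were called. Meis2 itself had 1250, 1218 and 1378 normalised reads in the mutant libraries, against 1526, 1695 and 1549 in the wildtype libraries. The groups did not overlap, and the authors' deposited table had Meis2 at -0.28 on the log2 scale with 6 libraries (adjusted p 0.0743) and at -0.33 with 4 (adjusted p 0.0213). The sign of all fold changes was set by reading Meis2 as lower in the mutant, so Meis2 does not check the labels.

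Cholesterol is built from acetyl-CoA through mevalonate, squalene and lanosterol. Its synthesis is controlled by SREBP transcription factors, which are held in the endoplasmic reticulum by Scap and Insig proteins while sterol is plentiful and are released to the nucleus when it falls. SREBP-2 acts mainly on sterol genes and SREBP-1 more on fatty acid genes, and both bind sterol regulatory elements, often with NF-Y at a nearby CCAAT box. In the face, cholesterol is also attached to Hedgehog ligands, and loss of Dhcr7, the enzyme of Smith-Lemli-Opitz syndrome, can cause cleft palate.

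Promoter windows from RefSeq (GRCm38.p6; 250 bases before to 50 bases after a transcript start) were available for 23 of the 30 genes, in 31 windows. A few are shown because sterol elements and CCAAT boxes lie in the promoters of many genes of this pathway. The word TCACNCCAC, a form of the sterol regulatory element, was searched on both strands and found in 1 of the 23 genes, Hmgcs1, against 1.44% of 27025 genes in the table. The word CCAAT, also searched on both strands (ATTGG when read on the other strand), was found in 19 of the 23 genes, or 82.6%, against 41.1% of all genes. No CCAAT word overlapped the sterol word in the window that held both. Such matches describe letters and not bound sites. The windows below are printed 5′ to 3′ in the direction of the gene, with both words in capitals. They are those of Hmgcs1, which holds the sterol word, and of Idi1, Hsd17b7 and Nsdhl, picked after their values were seen as the members with the lowest log2 fold changes among those that had a window. They lie at chr13:119690101-119690400 (plus strand), chr13:8885356-8885655 (plus), chr1:169969156-169969455 (minus) and chrX:72918271-72918570 (plus).
Hmgcs1: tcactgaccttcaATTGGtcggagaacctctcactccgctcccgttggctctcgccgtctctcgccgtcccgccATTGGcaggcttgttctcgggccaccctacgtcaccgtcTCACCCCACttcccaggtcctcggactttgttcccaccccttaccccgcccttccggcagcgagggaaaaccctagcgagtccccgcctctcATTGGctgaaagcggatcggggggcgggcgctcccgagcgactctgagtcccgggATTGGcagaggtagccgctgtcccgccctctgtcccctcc
Idi1: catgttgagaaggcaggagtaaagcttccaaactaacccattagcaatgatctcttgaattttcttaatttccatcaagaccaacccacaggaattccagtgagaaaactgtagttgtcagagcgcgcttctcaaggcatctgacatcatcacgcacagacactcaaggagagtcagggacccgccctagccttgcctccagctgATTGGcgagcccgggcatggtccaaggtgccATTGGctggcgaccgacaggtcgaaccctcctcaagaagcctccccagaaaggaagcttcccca
Hsd17b7: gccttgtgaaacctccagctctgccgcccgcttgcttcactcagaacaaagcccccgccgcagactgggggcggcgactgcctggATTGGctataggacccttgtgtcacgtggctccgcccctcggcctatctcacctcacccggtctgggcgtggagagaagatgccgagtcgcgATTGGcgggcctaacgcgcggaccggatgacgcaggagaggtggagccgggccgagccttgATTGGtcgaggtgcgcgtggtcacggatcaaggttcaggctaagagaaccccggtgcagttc
Nsdhl: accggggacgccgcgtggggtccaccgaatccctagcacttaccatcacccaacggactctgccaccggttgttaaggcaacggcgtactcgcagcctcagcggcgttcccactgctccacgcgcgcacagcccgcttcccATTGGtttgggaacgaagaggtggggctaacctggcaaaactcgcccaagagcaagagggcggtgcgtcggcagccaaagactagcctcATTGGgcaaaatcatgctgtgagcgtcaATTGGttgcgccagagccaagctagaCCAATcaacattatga
Hmgcs1 held 1 sterol word, TCACCCCAC, and 4 CCAAT words, Idi1 2, Hsd17b7 3 and Nsdhl 4 CCAAT words.

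The deposited tables give no value per library, but the read counts of most genes can be recovered from the base means. A base mean is the mean over libraries of the count divided by a size factor, so it is a sum of whole numbers with 1 fixed weight per library. Within the range of counts searched, a single set of 6 whole numbers met both tables' base means for 16176 of 16286 genes searched, among them 27 of the 30 members. Fasn had several answers, and Hmgcs1 and Scd2 have too many reads to be searched, so these 3 are given only by the authors' values. Normalised reads below are these counts divided by the size factor of the library, which ran from 0.775 to 1.44. Libraries were named A, B and C within each genotype, with C the one that the 4-library table leaves out. Their replicate numbers are not known, and the letters A and B pair no libraries. Recovered genes held 4601222 to 8335094 reads per library.

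Most sterol synthesis enzymes had lower values in the mutant, by small amounts, and 1 of them, Sqle, passed the authors' test. Of the 18 enzymes, 16 lay below 0 in the authors' deposited table, and 1 was called lower and 0 higher (DESeq2 Wald test, adjusted p under 0.05). Over all genes with an adjusted p, 2.91% were called in either direction and 1.16% lower, so 1 call among these enzymes or among the 30 members is near the background. Their median in the authors' deposited table was -0.20 on the log2 scale, against -0.01 over 14577 measured genes, of which 54.0% lay below 0. Taking p unadjusted and under 0.05, the authors' deposited table had 10 of the 18 lower and 0 higher, against 5.21% of measured genes lower. In the recovered counts 11 of 17 enzymes had all 3 mutant libraries below all 3 wildtype libraries, against 9.04% of 13084 measured genes. None of them had all mutant libraries above, against 8.90% of those genes. The number of calls depended on how library C of each genotype was treated. With a term for library C against A and B in limma, added after seeing the data, 10 of the 27 recovered members were called, all lower, where 9.11% of all genes were called and 4.78% were called lower. That term assumes that library C has the same shift against A and B in both genotypes. These enzymes share regulators, so they are not independent of one another. They were also chosen with earlier results of these data known, so these shares are descriptions and no test of the set. For the other 12 members, regulators and fatty acid genes, the authors' deposited table gave a median of -0.06 on the log2 scale, with 9 below 0.

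**Figure D1:**
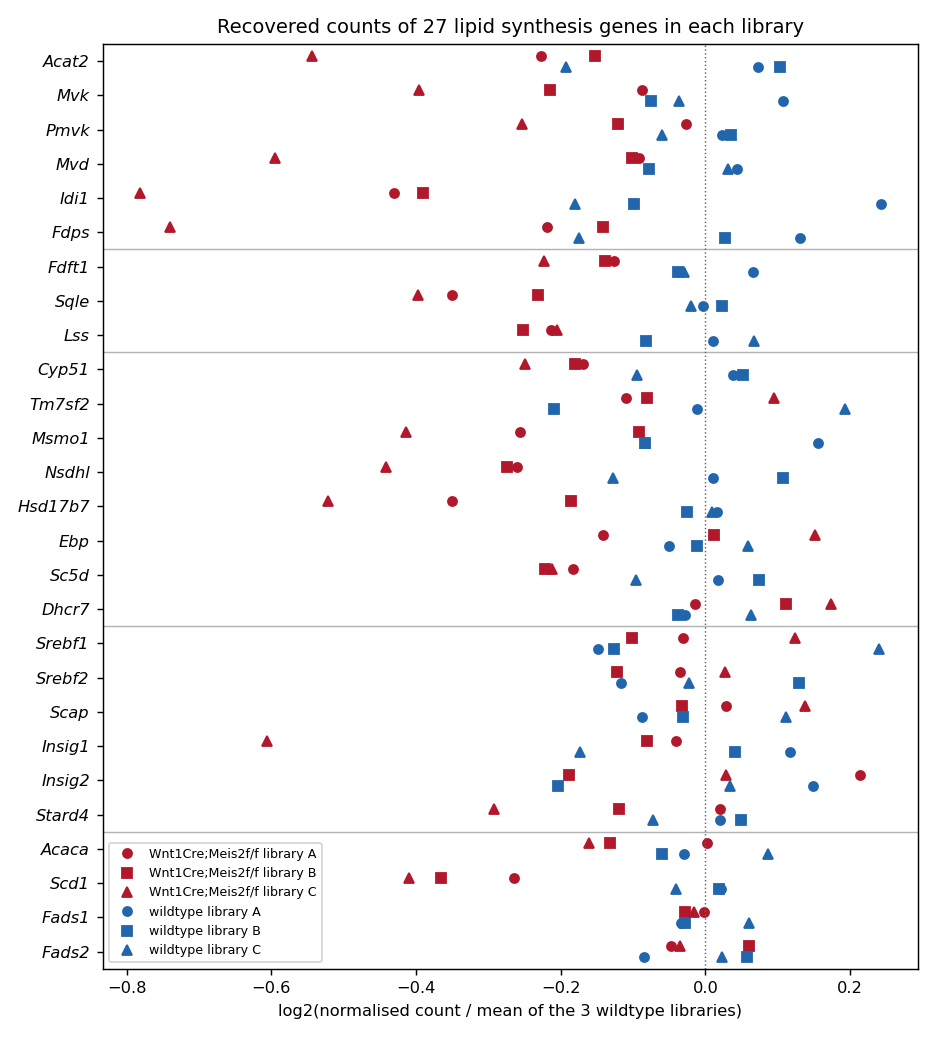
Normalised read counts of the 27 recovered genes, as log2 of the ratio to the mean of the 3 wildtype libraries (x axis), for each gene in pathway order (y axis). Red points are Wnt1Cre;Meis2f/f libraries, blue points wildtype libraries, and the shape gives the library letter. Red points lie left of all blue points for 12 genes and right of all blue points for 0.

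Sqle, squalene epoxidase, which catalyses the first oxygen-requiring step and is a rate-limiting one, was the member that passed the authors' test. It lies on chromosome 15, 59315077 to 59331192 (GRCm38). It had 1624, 1763 and 1572 normalised reads in the mutant libraries, against 2067, 2103 and 2043 in the wildtype libraries. The groups did not overlap, and the wildtype libraries lay closer together than the mutant libraries. The means were 1653 ± 98.9 in mutant and 2071 ± 30.5 in wildtype libraries (SD, n = 3 each). In the authors' deposited table Sqle fell by 0.30 on the log2 scale (SE 0.086, adjusted p 0.0210, DESeq2 Wald test), a ratio of 0.814. The ratio of the means above was 0.798, further from 1 than the deposited value. The authors' deposited table of 4 libraries had Sqle at -0.26 on the log2 scale with 0.0815 as adjusted p, so the call was lost. Limma on the recovered counts of 6 libraries gave -0.33 with an adjusted p of 0.0474, and 0.0540 to 0.207 when any 1 library was left out. With the term for library C the adjusted p of limma was 0.00161.

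The other enzymes around squalene had smaller differences. Fdft1, squalene synthase, had 901, 894 and 843 normalised reads in mutant libraries, against 1030, 958 and 964 in wildtype libraries. Lss, which closes squalene epoxide into lanosterol, had 925, 900 and 930 in mutant libraries, against 1080, 1014 and 1124 in wildtype libraries. Both were lower in every mutant library than in any wildtype library. The authors' deposited table put Fdft1 at -0.15 (adjusted p 0.643) and Lss at -0.20 (adjusted p 0.358) on the log2 scale, so neither passed. Of the exon bases of Fdft1, 18.3% are shared with Ctsb, a cathepsin gene, and reads there cannot be assigned without the strand setting.

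All 7 members of the mevalonate arm lay below 0 in the authors' deposited table, with a log2 median of -0.23, and 0 of them passed. Idi1, which isomerises isopentenyl diphosphate, had the lowest value of the 30 members. Its counts were low, 106 to 254 reads per library. It had 127, 131 and 99.7 normalised reads in mutant libraries, against 203, 160 and 151 in wildtype libraries, with no overlap. The means were 119 ± 17.0 in mutant and 171 ± 27.6 in wildtype libraries (SD, n = 3 each), a ratio of 0.696. The authors' deposited table has Idi1 at -0.37 on the log2 scale (SE 0.138, adjusted p 0.150). That value is drawn toward 0, and the log2 ratio of the means was -0.52.

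Mvk and Mvd, the mevalonate kinase and the diphosphate decarboxylase, also did not overlap between genotypes. Mvk had 401, 367 and 324 normalised reads in mutant libraries, against 459, 404 and 415 in wildtype libraries. Mvd had 369, 367 and 261 in mutant libraries, against 406, 373 and 402 in wildtype libraries. Mutant library C stands well below the other mutant libraries for Mvd, and mutant libraries A and B lie just below the lowest wildtype library. On the log2 scale Mvd was at -0.058 in the authors' deposited table of 4 libraries and at -0.19 in that of 6. Fdps, farnesyl diphosphate synthase, had 684, 723 and 477 in mutant libraries, against 873, 812 and 706 in wildtype libraries, and overlapped. Acat2, the cytosolic thiolase that makes acetoacetyl-CoA, had 1516, 1596 and 1216 in mutant libraries, against 1865, 1906 and 1552 in wildtype libraries, and also overlapped. In both genes library C was the lowest of its genotype, and with the term for library C limma gave adjusted p of 0.00895 for Fdps and 0.00308 for Acat2. Pmvk, phosphomevalonate kinase, had 282 to 330 normalised reads in mutant libraries and 323 to 345 in wildtype libraries. Hmgcs1, which makes HMG-CoA and whose promoter window holds the sterol word, had a base mean of 7502 in the authors' deposited table and stood at -0.23 on the log2 scale (SE 0.112, adjusted p 0.445). The authors' deposited table of 4 libraries had it at -0.21 (adjusted p 0.142). Acat2 has a close paralog, Acat3, so its reads may be shared with that gene. Exon bases of Fdps are shared with Gm43738, another annotated gene, over 26.7% of their length.

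Downstream of lanosterol, the authors' deposited table had 6 of 8 members below 0, and 0 passed. In the recovered counts 5 of the 8 had every mutant library below every wildtype library, as did 9.04% of measured genes. Hsd17b7, a 3-ketosteroid reductase of the C4 demethylation complex, had 571, 640 and 507 normalised reads in mutant libraries, against 736, 715 and 732 in wildtype libraries. For Hsd17b7 the authors' deposited table gave -0.30 on the log2 scale (SE 0.104, adjusted p 0.101). Nsdhl, a dehydrogenase of the same complex, had 290, 287 and 256 in mutant libraries, against 350, 374 and 318 in wildtype libraries. Msmo1, the C4 methyl oxidase, had 875, 981 and 785 in mutant libraries, against 1164, 986 and 986 in wildtype libraries. For Msmo1 mutant library B lay only just below the wildtype libraries, while for Hsd17b7 the gap between the groups was wide. Cyp51, the lanosterol demethylase, had 2777, 2756 and 2628 in mutant libraries, against 3207, 3237 and 2924 in wildtype libraries. Sc5d, which makes the C5 double bond, had 620, 604 and 608 in mutant libraries, against 713, 741 and 659 in wildtype libraries. Nsdhl, in the authors' deposited table, stood at -0.27 (adjusted p 0.315), Msmo1 at -0.22 (0.428), Cyp51 at -0.18 (0.373) and Sc5d at -0.18 (0.532) on the log2 scale.

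The remaining 3 enzymes of this stretch overlapped between genotypes. Dhcr7, which reduces 7-dehydrocholesterol in the last step of one branch, had 207, 226 and 236 normalised reads in mutant libraries, against 205, 204 and 219 in wildtype libraries. Dhcr7 in the authors' deposited table was at 0.07 on the log2 scale (SE 0.121, adjusted p 0.927), and the 95% interval from that SE was -0.17 to 0.31. Ebp, the sterol isomerase, had 96.7 to 119 in mutant libraries and 103 to 111 in wildtype libraries. Tm7sf2, a C14 sterol reductase, had 225 to 260 in mutant libraries and 210 to 278 in wildtype libraries. Dhcr7, Ebp and Tm7sf2 had 37.2, 46.4 and 54.7 base mean reads per kilobase of annotated exon, and among the other members only Idi1, at 41.5, was below 79.1. On that scale Scd2 and Hmgcs1 stood highest, at 2657 and 1633, and Cyp51 and Acat2 had 662 and 632. Whether these 3 enzymes differ in response from the other sterol enzymes was not tested.

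**Figure D2:**
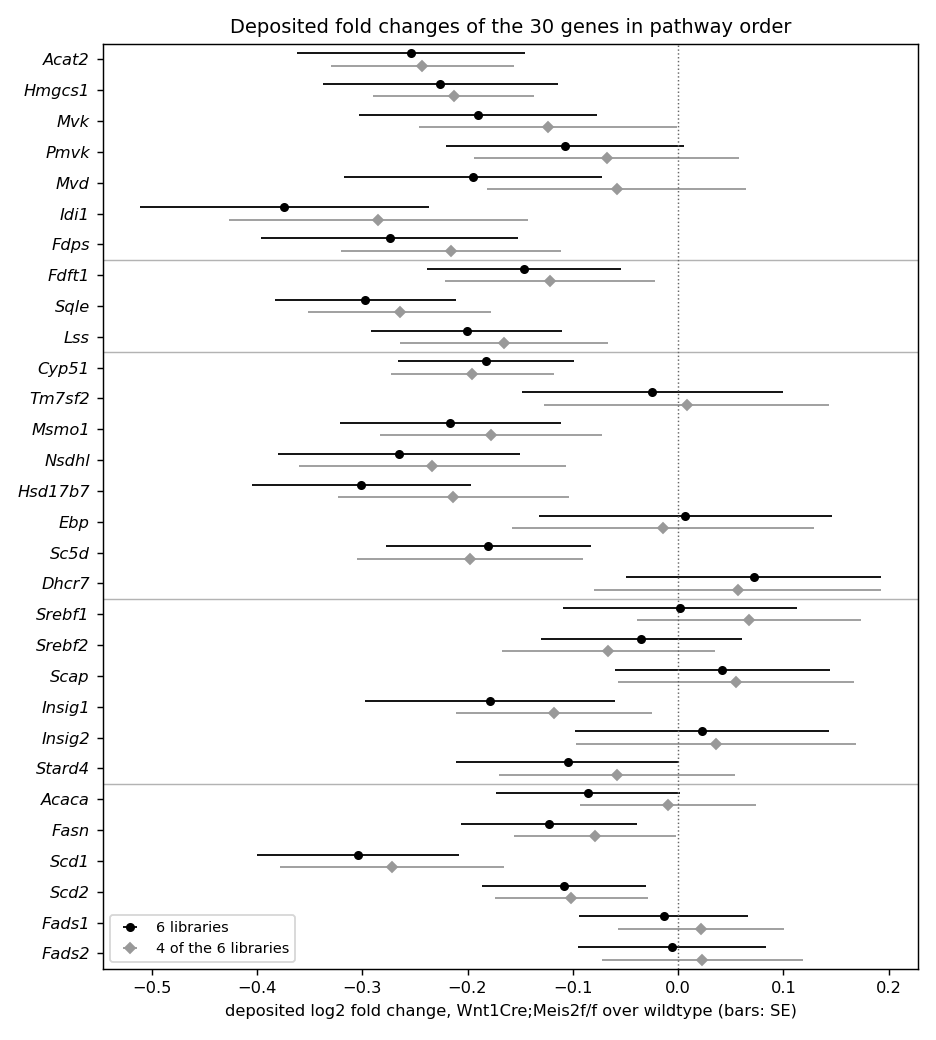
Log2 fold changes of the 30 genes from the authors' deposited tables (x axis, Wnt1Cre;Meis2f/f over wildtype, bars are SE) in pathway order (y axis), for 6 libraries in black and 4 of these libraries in grey. With 6 libraries, values of sterol enzymes run from -0.37 for Idi1 to 0.07 for Dhcr7, and Srebf1, Srebf2, Scap and Insig2 lie between -0.04 and 0.04. Insig1 and Stard4, of the same list as these regulators, lie at -0.18 and -0.105.

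None of the 6 genes of the SREBP system and sterol transport passed the test with either number of libraries (DESeq2 Wald test), and at an unadjusted p under 0.05 there were 0 as well. Srebf2, which encodes SREBP-2, had 1177, 1108 and 1230 normalised reads in mutant libraries, against 1112, 1320 and 1187 in wildtype libraries. Srebf1 had 732, 697 and 815 in mutant libraries, against 675, 686 and 883 in wildtype libraries. In both genes the groups overlapped. From the authors' deposited table the 95% interval on the log2 scale was -0.22 to 0.15 for Srebf2 and -0.22 to 0.22 for Srebf1. Scap, the escort protein, had 566 to 637 in mutant libraries and 545 to 626 in wildtype libraries. Insig2 had 313 to 414 in mutant libraries and 310 to 396 in wildtype libraries. Messenger levels do not show how much SREBP is cleaved or in the nucleus.

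Insig1, an anchor of Scap whose own transcription is a classical SREBP response, had 1196, 1164 and 809 normalised reads in mutant libraries, against 1335, 1267 and 1092 in wildtype libraries. The groups overlapped through wildtype library C, and the means were 1057 ± 215 in mutant and 1231 ± 126 in wildtype libraries (SD, n = 3 each). The authors' deposited table had Insig1 at -0.18 on the log2 scale (adjusted p 0.687), and at -0.12 with 4 libraries. Limma on recovered counts gave -0.24 with 6 libraries and -0.056 without mutant library C. With the term for library C it gave -0.24 and an adjusted p of 0.0461. Stard4, a cytosolic sterol carrier, had 474 to 588 in mutant libraries and 552 to 600 in wildtype libraries. The log2 value of Stard4 in the authors' deposited table was -0.11 (adjusted p 0.838).

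Among the 6 fatty acid enzymes 0 passed the test, and Scd1 had the lowest value. Scd1, a stearoyl-CoA desaturase that makes monounsaturated fatty acids, had 655, 611 and 593 normalised reads in mutant libraries, against 799, 798 and 765 in wildtype libraries. The means were 620 ± 32.1 in mutant and 787 ± 19.2 in wildtype libraries (SD, n = 3 each), with no overlap. Scd1 in the authors' deposited table was at -0.30 on the log2 scale (SE 0.096), with its adjusted p of 0.0518 just outside the threshold. The authors' deposited table of 4 libraries had it at -0.27 (adjusted p 0.212). Scd2, its paralog, had the highest base mean of the 30 members in the authors' deposited table, 14517, and stood at -0.11 on the log2 scale (SE 0.078, adjusted p 0.725). Reads from near-identical stretches of Scd1 and Scd2 could be split between them.

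Acaca and Fasn, which form malonyl-CoA and extend the fatty acid chain, had log2 values of -0.09 (adjusted p 0.838) and -0.12 (0.699), as the authors' deposited table lists them. With 4 libraries the authors' deposited table had Acaca at -0.0093 and Fasn at -0.079. Acaca had 2548, 2322 and 2276 normalised reads in mutant libraries, against 2493, 2442 and 2701 in wildtype libraries. The desaturases Fads1 and Fads2, which act on polyunsaturated fatty acids, had ranges that overlapped. Fads1 had 2646 to 2696 in mutant libraries and 2638 to 2814 in wildtype libraries. Fads2 had 1258 to 1356 in mutant libraries and 1226 to 1354 in wildtype libraries.

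**Figure D3:**
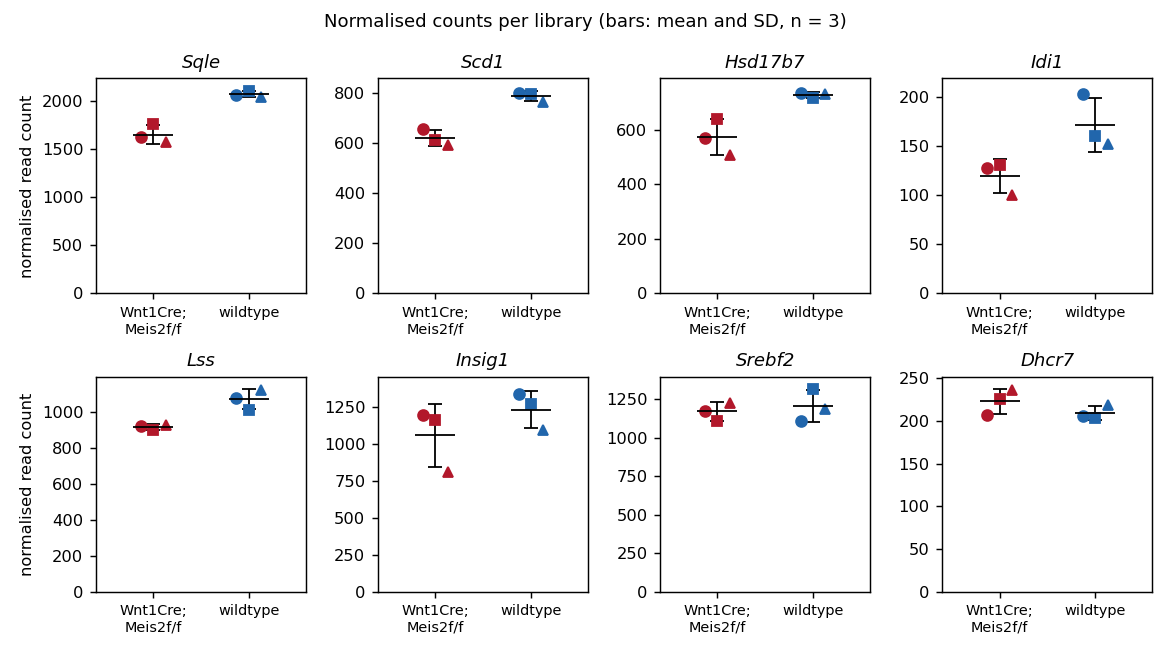
Normalised read counts (y axis, from 0) of 8 genes in each library, with the mean and SD as bars (n = 3) and marker shapes for libraries A (circle), B (square) and C (triangle). For Sqle, Scd1, Hsd17b7, Idi1 and Lss every Wnt1Cre;Meis2f/f library lies below every wildtype library, while Insig1, Srebf2 and Dhcr7 overlap.

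The libraries of 1 genotype were not alike. Mutant library C was the lowest of the 3 mutant libraries for 16 of the 27 recovered members. Over the 17 recovered sterol enzymes the median log2 ratio to the wildtype mean was -0.18, -0.15 and -0.40 in mutant libraries A, B and C, and 0.02, -0.02 and -0.04 in wildtype libraries A, B and C. All 3 mutant libraries thus lay below the wildtype libraries, library C by the most. Summed normalised reads of these enzymes were 12542, 12882 and 11403 in mutant libraries, against 15044, 14649 and 13906 in wildtype libraries. By limma on recovered counts the median log2 fold change of the 27 members was -0.20 with all libraries and -0.10 without mutant library C. Among wildtype libraries, A, B and C were the lowest for 6, 9 and 12 of the 27. Mutant library C was the lowest of all 6 libraries for 16 members, and wildtype library C for 0. Over the 27 the median log2 ratio was -0.0249 in wildtype library B and -0.0228 in wildtype library C. Such counts were not made over all genes. The genes called by limma with the term for library C were Acat2, Idi1, Fdps, Sqle, Lss, Cyp51, Nsdhl, Hsd17b7, Insig1 and Scd1. That split follows which libraries the 4-library table leaves out, and the labels do not say that these libraries share a litter or day. The term assumes 1 shift of library C for both genotypes. In the sterol enzyme medians above, library C stood further below A and B in the mutant than in the wildtype. The authors' deposited table of 4 libraries, which lacks library C of each genotype, called 0 of 30 members (DESeq2 Wald test), against 2.30% of genes. Taking p unadjusted and under 0.05, the authors' deposited table of 4 libraries had 7 members lower and 0 higher, against 4.73% of measured genes lower. Of the 30 members 23 lay below 0 with 4 libraries and 25 with 6, in the authors' deposited tables.

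Summed markers of muscle, neurons, glia and macrophages were separated by genotype in the same libraries, and in bulk tissue fewer cells of a type and less RNA per cell cannot be told apart. Skeletal muscle markers, 16 of 18 measured, summed to 737 to 1146 normalised reads in mutant libraries and 358 to 448 in wildtype libraries over the 11 recovered. Neuron markers, 10 of 12 measured, summed to 642 to 789 in mutant libraries and 1161 to 1618 in wildtype libraries. Macrophage markers, 13 of 13 measured, summed to 1219 to 1421 in mutant libraries and 820 to 999 in wildtype libraries. Schwann cell and glial markers, 10 of 11 measured, summed to 1324 to 1466 in mutant libraries and 1521 to 2037 in wildtype libraries. These 4 lists did not overlap between genotypes. Endothelial markers (13 of 13 measured, 7990 to 9153 in mutant and 7452 to 9349 in wildtype libraries) and epithelial markers (15 of 15, 1818 to 2339 in mutant and 1698 to 2530 in wildtype libraries) overlapped. Erythroid markers summed to 1733 to 1836 in mutant and 1505 to 2183 in wildtype libraries, with 4 adult globin genes of the list (Hbb-bt, Hbb-bs, Hba-a2 and Hba-a1) at a base mean of 0. The part of these differences in the values of the lipid genes was not tested.

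Outside the 30 genes, a wider list of 77 lipid genes had 74 measured members, of which the authors' deposited table called 1 lower and 2 higher in the mutant, near the 2.91% of all genes called in either direction. Their median in the authors' deposited table was -0.01 on the log2 scale, with 40 below 0. Vldlr, a receptor for lipoproteins and reelin, fell in the authors' deposited table by 0.55 on the log2 scale (SE 0.095, adjusted p 1.73e-06). It had 705, 649 and 745 normalised reads in mutant libraries, against 1088, 1021 and 1107 in wildtype libraries, with no overlap. The authors' deposited table of 4 libraries had Vldlr at -0.54 (adjusted p 3.02e-05). Apoe, a lipoprotein component and LXR target, rose in the authors' deposited table by 0.52 on the log2 scale (SE 0.112, adjusted p 3.69e-04). It had 565, 626 and 526 in mutant libraries, against 330, 376 and 414 in wildtype libraries. Macrophages express Apoe strongly, and the summed macrophage markers were 1219 to 1421 in mutant libraries and 820 to 999 in wildtype libraries; their part in the value of Apoe was not tested. Gramd1c, a sterol transfer protein, rose by 0.44 in the authors' deposited table of 6 libraries (adjusted p 0.0331) and stood at 0.38 in that of 4 (adjusted p 0.154), on the log2 scale. Abca1, the sterol exporter and LXR target, stood at 0.30 in the authors' deposited table of 6 libraries (adjusted p 0.143) and rose by 0.36 in that of 4 (adjusted p 4.06e-04), on the log2 scale.

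The remaining genes of the wider list did not pass with either number of libraries. For the 11 other sterol synthesis genes the authors' deposited table gave a median of -0.11 on the log2 scale, with 8 below 0. In the authors' deposited table Acat1, the mitochondrial thiolase, was the lowest of the 11 at -0.22 (adjusted p 0.448) and Fdx1, an electron carrier, the highest at 0.04 (adjusted p 0.952). In the acetyl-CoA supply and elongation list, 28 measured genes of the authors' deposited table, the log2 values ran from -0.36 for Mid1ip1, an activator of acetyl-CoA carboxylase, to 0.24 for Acacb, the mitochondrial form of that enzyme. These log2 values come from the authors' deposited table, with adjusted p of 0.203 for Mid1ip1 and 0.496 for Acacb. For the SREBP activation and degradation list, 11 genes, the authors' deposited table gave a median of 0.02, with Prkaa2 highest at 0.26 (adjusted p 0.525) and Prkaa1 lowest at -0.06 (adjusted p 0.928), on the log2 scale. Both encode catalytic subunits of AMP-activated kinase. Going by the authors' deposited table, the cholesterol uptake and trafficking list, 16 measured genes, had a median of -0.01 on the log2 scale, and the LXR list, 8 genes, one of 0.07. The authors' deposited table had Mlxipl, a glucose-responsive lipogenic factor, lowest of the LXR list at -0.20 (adjusted p 0.706).

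**Figure D4:**
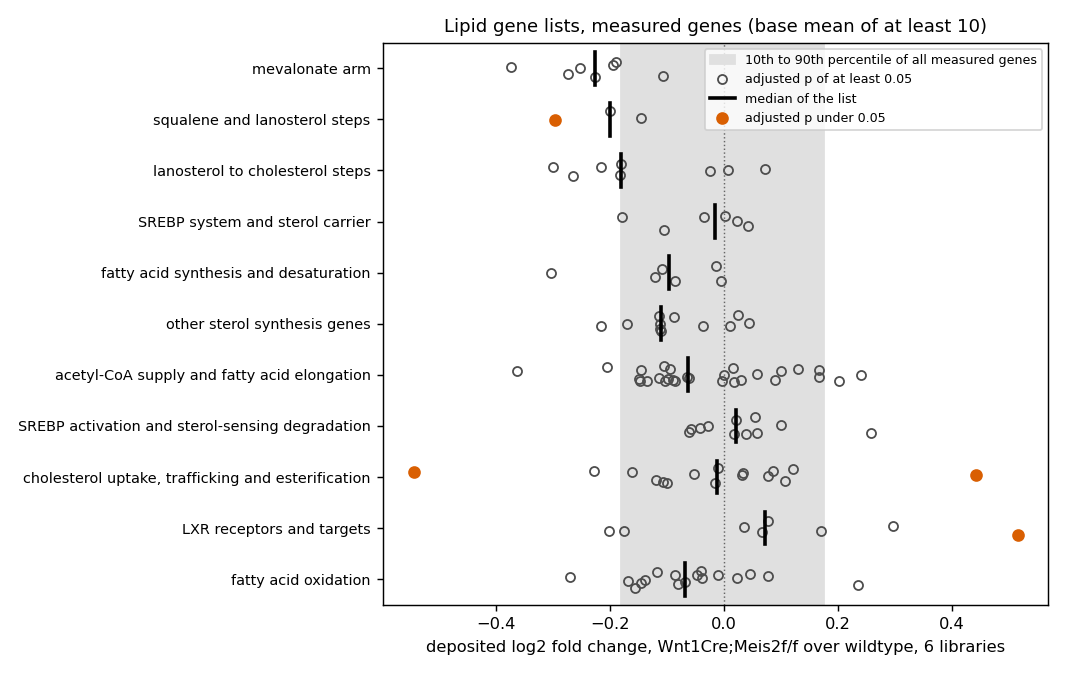
Log2 fold changes of measured genes from the authors' deposited 6-library table (x axis, Wnt1Cre;Meis2f/f over wildtype), by list (y axis). Open circles have an adjusted p of at least 0.05, filled orange circles one under 0.05, black bars are list medians, and the grey band spans the 10th to 90th percentile of all measured genes. The sterol synthesis lists at the top have medians from -0.23 to -0.18, and the orange points outside them are Vldlr, Gramd1c and Apoe.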

How the data were processed

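The 6 libraries, 3 Wnt1Cre;Meis2f/f and 3 wildtype, are called biological replicates in the labels' protocols. HISAT2, featureCounts and DESeq2, with builds GRCm38 and mm10, are named in the submitters' processing notes, without settings. The strand setting of the counting is not given in the sources used. Total RNA was amplified before library preparation, per the labels' protocols, and genes with few reads are the most exposed to noise from that step.

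The values used were 6 columns of each of 2 tables of the authors' own comparison. The authors deposited the base mean, a signal at or above 0, which averages normalised counts over libraries. Fold changes and SE are on the log2 scale, as deposited by the authors. The fold changes are drawn toward 0, and not only for genes with few reads. Acat2, with a base mean of 1608, stood at -0.25, against -0.30 for the log2 ratio of its recovered means. The authors also deposited the Wald statistic, a score, and the p-value and adjusted p-value of that DESeq2 test. The design text describes pairs of libraries of the same number, but the first table rests on 6 libraries and the second on 4 of these, 2 per genotype, as single-read genes show. The second therefore shares all its libraries with the first. Another, shorter table was not used.

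Read counts per library were recovered from base means (10 significant digits with 6 libraries, 15 with 4) by searching whole numbers. Genes with a base mean up to 2100, or up to 5000 for members, were searched. For the libraries of the second table the search covered counts around an equal share, in a narrower range for genes with more reads. Answers outside that range would be missed. Libraries were put on the mutant or wildtype side of the authors' contrast by the sign of the deposited fold changes. In simulated tables all 1197 genes given an answer were right, and 0 of 300 base means shifted by 1e-07 had one. Both checks used lower base means than the highest ones searched. They do not reach those of Acat2, Sqle, Cyp51, Acaca and Fads1. The simulation, which checked that answers were right, also drew its genes from base means below those of Fdft1, Msmo1, Lss, Insig1, Srebf2, Fads2 and Meis2. Size factors from the recovered counts by the median of ratios differed from those of the tables by at most 0.620%. Over 9149 well-expressed genes, r across genes was 0.987 between the log2 mean ratio and the deposited fold change. Genes are not independent replicates, and the sides were set by those fold changes. The planned count test was not run, since counts are missing for the most abundant genes. Limma 3.58.1 in R 4.3.3 was used on log2(normalised count + 1), with trend, over 13084 genes with a mean of at least 10, adjusted by Benjamini-Hochberg; it was tested on simulated data. Gene positions and exon lengths are from GENCODE vM21 (GRCm38). Lengths join the exons of all transcripts.

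Tests across all genes used an adjusted p under 0.05. Named genes were all members, called genes of the wider lists and the highest and lowest of each. Members and lists were chosen with earlier results of these data known, and no set test was made. Alternatives were 4 libraries, other filters and thresholds, centring, limma, a term in limma for library C against A and B, and leaving out each library; the last 3 were added after seeing the data. Sex and litter were not used, as the labels give neither. Exon bases are shared with other annotated genes for 9 of the 30 members.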

Additional observations from a re-analysis of the deposited data

How the results depend on the processing

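No paired analysis was possible because the recovered libraries carry no replicate numbers. Only library C of each genotype, absent from the 4-library table, can be told from A and B, and a limma fit with a term for that split, added after seeing the data, called 10 members and 1192 genes, against 1 and 319 without the term. The member median was -0.20 in both fits. The term marks 1 library of each genotype, so it cannot move a fold change, and the equal medians show nothing about stability. The 1 member called, Sqle, was also called with p adjusted over measured genes alone, over all genes with no filter, and by limma on recovered counts, the last added after seeing the data. With 4 libraries 0 members were called, and at an adjusted p under 0.1 there were 2, Sqle and Scd1. Leaving out 1 library by limma gave 0 to 0 members called, with 131 to 373 genes called in all. Taking p unadjusted, 4 to 11 members were lower and 0 higher, where 3.54% to 9.01% of all genes were lower. Leaving a library out also lowers the number of samples. In the authors' deposited tables the median log2 fold change of the 30 members was -0.16 with 6 libraries and -0.11 with 4. With 6 libraries it was -0.15 when centred on all measured genes, and -0.16 with a higher base mean filter of 100 or with none. By limma the median over the 27 recovered members was -0.20 with all libraries. Over the 6 sets with 1 library left out this limma median ran from -0.21 to -0.10. It was highest without mutant library C, and the cause was not tested. Members below 0 numbered 23 with 4 libraries and 24 after centring, and the wider list had 3 called genes with either number of libraries. The called genes were Vldlr, Apoe and Gramd1c with 6 libraries, and Vldlr, Apoe and Abca1 with 4. Acaca moved to -0.0093 with 4 libraries. Among single members 7 changed sign, none of them called. With 4 libraries Tm7sf2 was at 0.0082, Ebp at -0.014, Fads1 at 0.022 and Fads2 at 0.023, and centring put Fads2 at 0.0075. With 1 library left out, log2 values ran from -0.1223 to 0.0775 for Tm7sf2, -0.0637 to 0.0820 for Ebp, -0.0601 to 0.1336 for Srebf1, -0.0968 to 0.0264 for Srebf2, -0.0732 to 0.1280 for Insig2, -0.0309 to 0.0157 for Fads1 and -0.0483 to 0.0232 for Fads2. With 3 libraries per genotype the deposited SE of the members ran from 0.078 for Scd2 to 0.139 for Ebp on the log2 scale, which limits what can be detected.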

Other observations

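Fatty acid oxidation genes, which break down what the synthesis genes make, were looked at beside them. The authors' deposited table measured 17 of 18 genes, 13 of them below 0, with a log2 median of -0.07. Of the 17 genes in the authors' deposited table, 0 passed at an adjusted p under 0.05 (DESeq2 Wald test), and 1 was higher and 0 lower at an unadjusted p under 0.05. That gene was Cpt1a, whose enzyme joins long-chain fatty acids to carnitine for their entry into mitochondria. It had 748, 671 and 733 normalised reads in mutant libraries, against 570, 582 and 639 in wildtype libraries, with no overlap. Of the 17 recovered genes of this list, 1 had all mutant libraries above all wildtype libraries and 2 had all below. Over all measured genes these shares were 8.90% and 9.04%. The authors' deposited table had Cpt1a at 0.23 on the log2 scale (adjusted p 0.295). Ppargc1a, a coactivator of mitochondrial genes, was the lowest of the list in the authors' deposited table at -0.27 (adjusted p 0.544).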
